A study of Mus musculus with 19 samples.

Results

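Chromosome 12 of the mouse squamous cell carcinoma line A223 carried 5712 positions at which the exome was called different from the reference, among 209790 such positions over all chromosomes. The members were chosen by their exome genotype, which was any call on chromosome 12 other than none. They were singled out with their high share of homozygous calls already known. The genotype 1/1 stands for a position called with a non-reference allele on every copy, and 0/1 for a position called with 1 reference and 1 non-reference allele. On chromosome 12, 5291 calls were 1/1, 419 were 0/1 and 2 carried 2 different non-reference alleles.

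The series set tumour and spleen T cells of mice bearing A223 beside the tumour line itself. The A223 samples were DNA captured for exons and polyA RNA, both taken from tumour cells grown in vitro, with 1 library each and no treatment. The labels give the strain of both as C57BL/6-derived, and 125518 exome calls over all chromosomes were 1/1 for a non-reference allele. No normal tissue of the same mouse was analysed here. With 1 exome and 1 RNA library there is no replicate, so every value below describes these libraries and carries no test.

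A diploid cell holds each autosome in a pair of copies, and a variant inherited or acquired on 1 copy is read as heterozygous. Mice of an inbred strain are homozygous almost everywhere, and the mouse reference genome is that of C57BL/6J. Long runs of homozygous differences from the reference are a familiar feature of genomes that hold chromosome segments of another strain, and of tumour genomes that have lost 1 parental copy. Neither was tested here.

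Sequences from before 2 gene starts are shown first to give examples of the calls at the scale of single bases. They are the 250 bases before the RefSeq start of Scfd1, a protein of vesicle transport, and of Tomm20l, a relative of the mitochondrial import receptor Tomm20. Both are from GRCm38.p6, on the plus strand, at chr12:51377263-51377512 and chr12:71111178-71111427. Capitals mark the bases called in the exome, and the letters are those of the reference.
Scfd1: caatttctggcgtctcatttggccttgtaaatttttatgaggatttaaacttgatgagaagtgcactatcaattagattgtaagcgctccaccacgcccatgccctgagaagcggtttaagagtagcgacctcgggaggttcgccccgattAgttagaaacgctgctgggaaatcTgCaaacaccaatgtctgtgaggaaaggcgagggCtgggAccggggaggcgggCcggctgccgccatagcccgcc
Tomm20l: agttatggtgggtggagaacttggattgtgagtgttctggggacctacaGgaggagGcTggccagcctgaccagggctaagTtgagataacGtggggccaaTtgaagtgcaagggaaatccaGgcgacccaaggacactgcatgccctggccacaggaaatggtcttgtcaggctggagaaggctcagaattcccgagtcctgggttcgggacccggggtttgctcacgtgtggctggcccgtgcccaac
The 6 calls before Scfd1 were A152G, T176G, C178G, C210G, A215G and C229T, with the reference base first and positions counted from the 5′ end of the window. The 7 calls before Tomm20l were G50A, G57T, T59A, T82C, G92T, T102G and G123A. All 13 were 1/1. RNA reads over these positions numbered 1 or 2 at Scfd1 and 0 at Tomm20l. In all, 61 calls fell in 21 of the 1277 chromosome 12 windows that reach from 250 bases before to 50 bases after a RefSeq start, and 60 of them were 1/1. Most windows thus held no call. The 2 shown were among those with the most and do not stand for the usual density.

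The share of 1/1 among exome calls was 92.6% on chromosome 12 (exact Clopper-Pearson 95% interval 91.9 to 93.3), against 59.8% over all chromosomes and 58.9% over the others. Chromosome 12 ranked second, after chromosome 8 with 93.2% of 22817 calls. Chromosome 7 followed with 77.4%, and chromosome 19 was lowest with 21.0%. The intervals cover counting error only and treat calls as independent, which neighbouring calls on 1 haplotype are not. The genotype chose the members, so this share is a description. Among the 1/1 calls, 4299 were single-base substitutions and 992 were insertions or deletions.

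**Figure D1:**
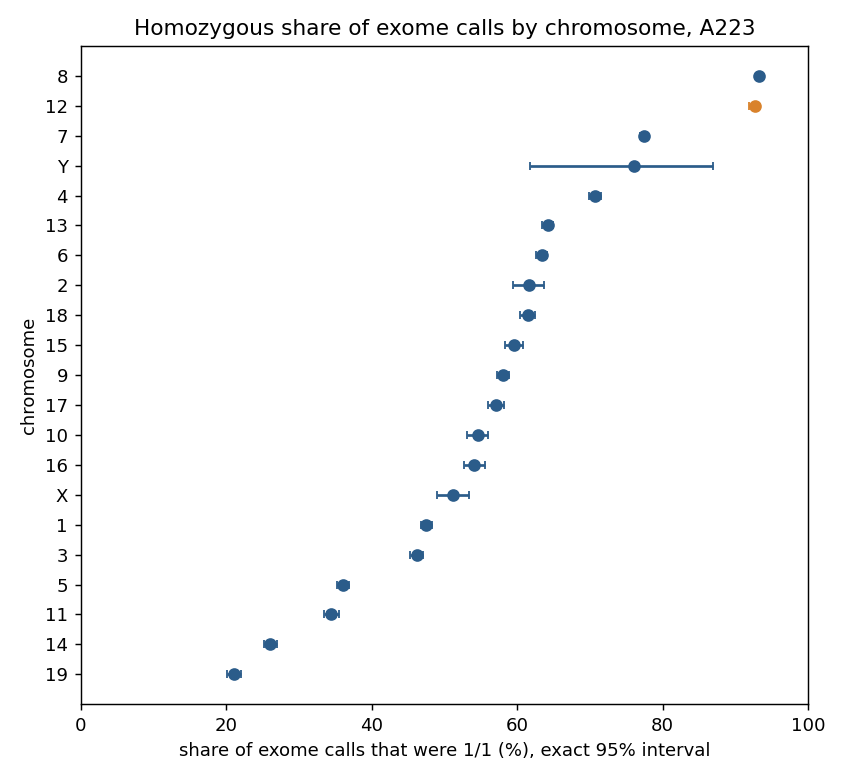
Share of exome calls that were 1/1 on each chromosome of A223 in percent, with exact 95% intervals for counting error. Chromosome 12 (orange) lies at 92.6%, next to chromosome 8 at 93.2% and above chromosome 7 at 77.4%.

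The calls were spread unevenly along the chromosome. In 5 Mb windows, the 12 consecutive windows from 40 to 100 Mb held 5533 of the 5712 calls (96.9%) and 98.2% of the 1/1 calls. Each of these windows had at least 73 calls, while the remaining 12 windows had 3 to 42 each and 179 together. The share of 1/1 was 93.9% (93.3 to 94.6) from 40 to 100 Mb, while in the remaining windows 93 of 179 calls were 1/1 (interval 44.4 to 59.5%). The bounds at 40 and 100 Mb were set after the counts were seen. From 40 to 100 Mb, 78 of 327 RefSeq protein-coding genes had a coding call (23.9%), and outside it 2 of 352 had one (0.568%).

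The window from 50 to 55 Mb stood above the rest with 2197 calls of 1/1 and 9 of 0/1, a 1/1 share of 99.6%. Over the genome, 16 of 554 windows held more calls and 11 held more 1/1 calls, and the median window held 119.5 calls. Within it, the 1 Mb from 51 to 52 Mb held 1118 calls of 1/1 and 7 of 0/1. A coding call was present in 7 of the 9 RefSeq genes of that megabase, among them Coch, Dtd2, G2e3, Heatr5a, Scfd1 and Strn3. A broader stretch from 69 to 77 Mb held 1387 calls of 1/1 and 22 of 0/1, and 36 of its 80 genes had a coding call.

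**Figure D2:**
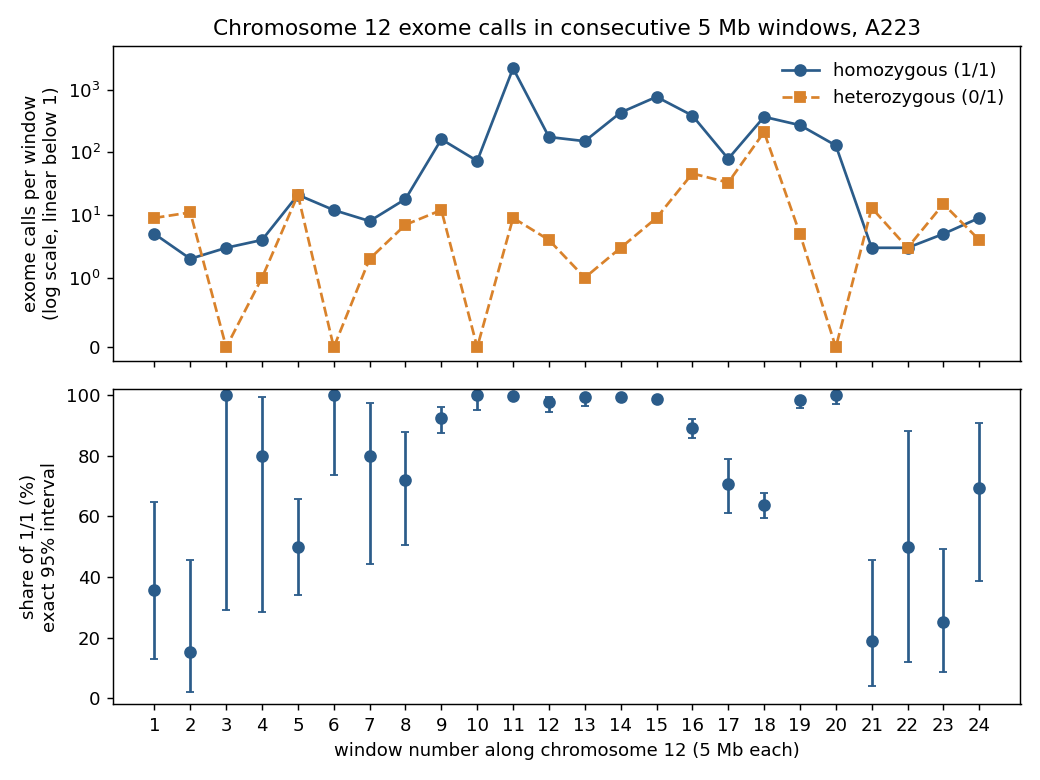
Exome calls (upper, log scale that is linear below 1) and share of 1/1 with exact 95% intervals (lower) in the 24 consecutive 5 Mb windows of chromosome 12. Windows 9 to 20 hold 5533 of 5712 calls; window 11 has 2197 calls of 1/1, and window 18 has the most 0/1 calls, 211.

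Thin stretches lay inside the dense span. From 81 to 87 Mb, only 12 calls of 1/1 and 28 of 0/1 were made over 79 protein-coding genes, and the 2 coding calls there were in Elmsan1 and Vash1. From 48 to 50 Mb there were 2 calls over 1 gene. Neighbouring 1/1 calls from 40 to 100 Mb were a median of 106 bases apart (quartiles 18 and 2370), and 49.0% followed within 100 bases. In 8 cases the gap exceeded 1 Mb, and the longest, 2271206 bases, ran from 92766457 to 95037663. An exome capture reads mainly exons and their flanks, so spacing also depends on where the captured exons lie.

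Runs of 1/1 calls with no 0/1 call between them spanned up to several megabases. The run with the most calls held 757, from 52567224 in Arhgap5 to 58997466 in Sec23a, over 6430243 bases. The next held 490 calls in 303908 bases and ended in Nubpl. The third held 378 calls in 2643789 bases, beginning in Sav1.

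Of the 419 heterozygous calls, 333 (79.5%) also lay from 40 to 100 Mb. Within that span, 211 of them (50.4% of the 419) lay from 87 to 89 Mb, where 335 calls were 1/1, so the window from 85 to 90 Mb had a 1/1 share of 63.6%. Labels of predicted gene models beginning with Gm were attached to 69.5% of 0/1 calls on chromosome 12 (64.8 to 73.8), to 26.9% of its 1/1 calls and to 17.5% of 0/1 calls elsewhere. The labels with the most were Gm8300 with 48 calls, the interval between Gm10436 and Gm8332 with 37, Gphn with 32, Gm2022 with 28, and Gm5436 and Gm8332 with 21 each. The 10 most frequent of 85 labels held 58.7%. Another 0/1 call lay within 100 bases for 83.1% of them, against 74.4% on the other chromosomes, and 29 were single-base calls with no such neighbour.

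Base changes also differed between the genotypes. Transitions, the exchanges between A and G or between C and T, made up 69.5% of the 1/1 substitutions (68.1 to 70.9) and 59.4% of the 0/1 substitutions (54.0 to 64.7). On the other chromosomes these shares were 68.3% and 67.9%. The chromosome 12 share of 0/1 calls thus lay below the other 3, and no test was made. Reads of near-identical copies can be placed at 1 position and called there as heterozygous, and the part of such reads in these calls was not tested.

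RNA reads offer a second genotype at expressed positions. The genotype columns of exome and RNA come from separate libraries of the same line. Of 293 chromosome 12 positions called 1/1 in the exome and read by 20 or more RNA reads, 259 were also 1/1 in RNA. That is 88.4% (84.2 to 91.8), against 78.0% over all chromosomes. A further 3 (1.02%) were 0/1 in RNA and 31 (10.6%) had no RNA genotype, while on the other chromosomes 9.38% were 0/1 in RNA. The 3 lay in introns of Strn3, Arhgap5 and Nemf, with 32, 23 and 36 RNA reads. Those without an RNA genotype had 20 to 584 reads, with a median of 56, and 7 of them were synonymous coding calls. Depth limited this comparison, since 3033 of the 1/1 calls (57.3%) had 0 RNA reads.

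Heterozygous exome calls were rarely heterozygous in RNA. With 20 or more RNA reads, 3 of 76 chromosome 12 calls were 0/1 in RNA (3.95%, 0.822 to 11.1), against 54.7% over all chromosomes. Of the others, 23 (30.3%) were 1/1 in RNA and 50 (65.8%) had no RNA genotype. Whether no RNA genotype stands for a position read as reference only was not tested. Of the 26 with an RNA genotype, 11.5% were 0/1, against 83.6% over all chromosomes. Among all such calls with 20 or more reads, 3.95% was the lowest share of 20 chromosomes. X followed with 6.13% and chromosome 2 with 16.2%, and chromosome 9 was highest with 75.1%. Another 301 of the 0/1 calls had 0 RNA reads and 42 had 1 to 19. The plot of RNA genotypes shows the 4 sets side by side.

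**Figure D3:**
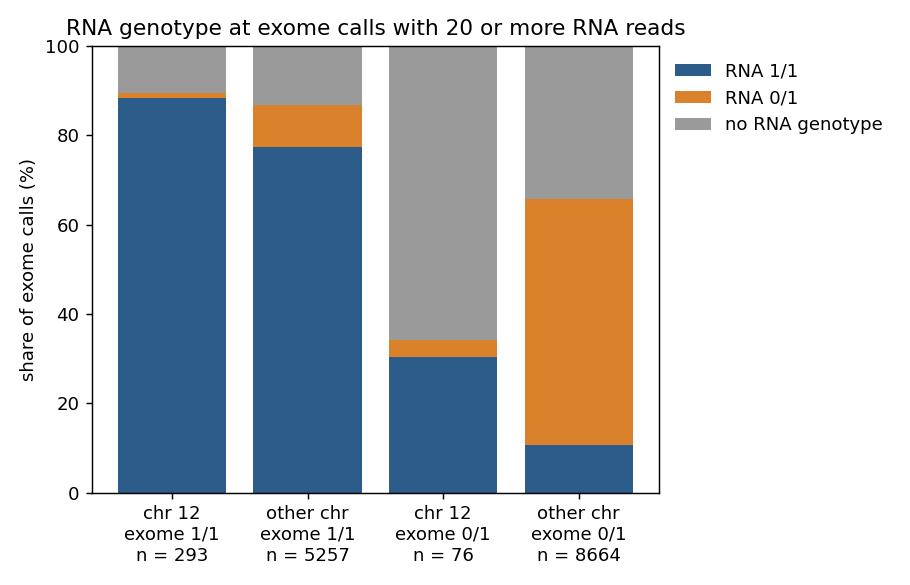
RNA genotype at exome calls with 20 or more RNA reads, in percent of calls, for 1/1 and 0/1 exome calls of chromosome 12 and of the other chromosomes. The 0/1 calls of chromosome 12 hold 3.95% RNA 0/1 and 65.8% without an RNA genotype, while 1/1 calls are mostly RNA 1/1 on both.

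Of the 76 calls of 0/1 with 20 or more RNA reads, 51 (67.1%) lay in 2 labels, Gphn and Gm5436. In Gphn, which encodes the scaffold gephyrin of inhibitory synapses and an enzyme of molybdenum cofactor synthesis, 30 calls had 20 or more reads. Of these, 26 lay in 166 bases of an intron, from 78350900 to 78351065, with 1299 to 5303 RNA reads and a median of 4371.5. None of the 26 was 0/1 in RNA, 1 was 1/1 and 25 had no RNA genotype. The remaining 4 lay from 78256180 onward, with 2 of 0/1 and 2 of 1/1 in RNA.

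Gm5436 is annotated as a processed pseudogene, a copy of a messenger RNA set back into the genome. Its 21 calls lay between 84258390 and 84258950, with 221 to 744 RNA reads and a median of 382. In RNA, 18 were 1/1, 1 was 0/1 and 2 had no genotype. With these 2 labels left out, 25 calls of 0/1 under 12 labels had 20 to 539 reads, with a median of 52. None was 0/1 in RNA, 2 were 1/1 and 23 had no RNA genotype. Both sets may hold reads from other copies, and this was not tested.

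Coding 0/1 calls were made in 4 genes. Cinp, a cell-cycle protein that binds the cyclin-dependent kinase Cdk2, had 10 calls with 36 to 105 RNA reads, none with an RNA genotype. Among them were 2 synonymous changes with 52 and 105 reads and H188Y with 45. In 2010107E04Rik, V11I had 213 reads and a synonymous change 225, again without an RNA genotype. Oog1, an oocyte gene, had an in-frame deletion with 0 reads, and Gm2046 had D119Y.

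Introns held 2506 calls (43.9%, against 38.8% on the other chromosomes) and sequence between genes 1752 (30.7%, against 20.7%). Synonymous calls numbered 243 (4.25%, against 6.13% on the other chromosomes), of which 240 were 1/1. Missense calls numbered 83 (1.45%, against 3.92%), of which 80 were 1/1. Non-coding exons held 13 calls of 1/1 and 27 of 0/1, of which the pseudogene Gm5436 held 0 and 21, so that 13 and 6 lay outside it. The 3′ UTRs held 93 and 38. In-frame, frameshift and splice-site calls numbered 4, 2 and 2, and no stop or start codon was changed by a substitution.

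Of 332 coding calls, 89 changed the protein. The share of 26.8% (22.1 to 31.9) stood against 40.7% over all chromosomes. Among 1/1 coding calls it was 26.2% (21.5 to 31.3) on chromosome 12 and 39.3% (38.2 to 40.4) on the others, so the lower share was also present within that genotype. The difference was not tested, since calls on 1 haplotype are not independent. From 50 to 55 Mb the share was 27.2%, and in the other chromosome 12 windows 25.3%. Heatr5a and Akap6 together had 36.0%, and without them the protein-changing share among 1/1 coding calls was 22.6%.

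At least 1 exome call was placed in 255 genes, a coding call in 86 and a protein-changing call in 42. Of the 42 genes, 28 had 1 protein-changing call and 5 had 3 or more. Among the 85 homozygous protein-changing calls, 33 in 17 genes had 20 or more RNA reads. All 33 were 1/1 in RNA, against 88.4% of all chromosome 12 1/1 calls with 20 or more reads. Of the 33, 14 lay in Heatr5a, and neighbouring calls are not independent. Of the 85, a further 27 had 1 to 19 reads and 25 had 0. At any depth, 55 of the 85 were 1/1 and 0 were 0/1 in RNA.

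Heatr5a, a HEAT-repeat protein, had the most calls. All 283, from 51871857 to 51961928, were 1/1, with 220 in introns, 34 synonymous and 14 protein-changing. Its 14 protein changes had 29 to 94 RNA reads (median 54.5), and all 14 were 1/1 in RNA. Akap6, which anchors protein kinase A at the nuclear envelope of muscle and nerve cells, had 269 calls, all 1/1. Of these, 17 changed the protein, at 0 to 10 RNA reads, and 14 of the 17 were 1/1 in RNA. The neuronal transcription factor gene Npas3 had 241, with 7 synonymous and 1 protein-changing. Scfd1 had 168, with 8 synonymous and 0 protein-changing. The kinase gene Prkd1 had 167, with 10 synonymous and G384E at 37 reads. The 5 genes had no 0/1 call.

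**Figure D4:**
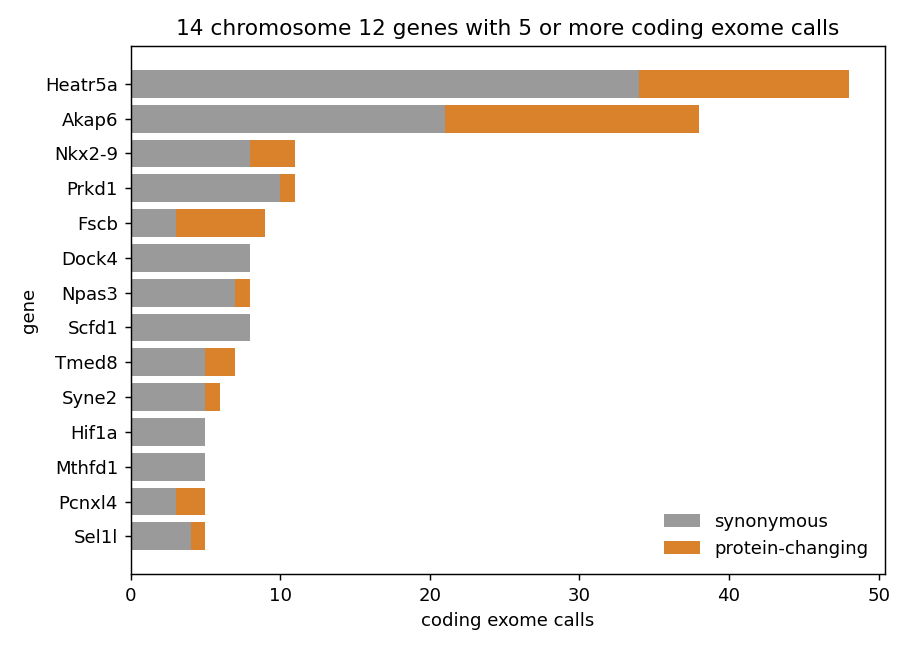
Synonymous (grey) and protein-changing (orange) exome calls in 14 of the 15 chromosome 12 genes with 5 or more coding calls, as numbers of calls. Heatr5a has 34 and 14, Akap6 21 and 17, and Dock4, Scfd1, Hif1a and Mthfd1 have synonymous calls only.

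From 50 to 55 Mb lay 41 of the 85 homozygous protein-changing calls. Of the 10 genes whose homozygous protein changes were read most deeply in RNA, 5 lay between 51 and 55 Mb, a share near that. Among them, Arhgap5, which encodes a GTPase-activating protein, carried V1092A in exon 1 of 6 at 52519522 with 208 reads. Strn3, a subunit of the STRIPAK phosphatase complex, carried T648A in exon 15 of 18 with 106 reads, and Heatr5a carried A1520T in exon 29 of 36 with 94. Egln3, a prolyl hydroxylase that marks hypoxia-inducible factor for destruction, carried C65R in exon 1 of 5 at 54203369 with 48 reads. Each was 1/1 in both exome and RNA.

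The remaining deeply read changes were spread from 40 to 92 Mb. Sel1l, an adaptor of the degradation of misfolded proteins in the endoplasmic reticulum, carried Q779H near the end of its 790 residues, with 131 reads. Syne2, which links the nucleus to the cytoskeleton, carried E989D in a protein of 6874 residues, with 127 reads. The zinc-finger gene Zfp277 carried T177A with 60 reads. Arid4a, a retinoblastoma-binding chromatin protein, carried T1134S and S1138P in exon 22 of 24, with 57 and 56 reads. Dnaaf2, needed to assemble dynein arms of cilia, carried S753T with 55 reads. These too were 1/1 in exome and RNA.

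Frameshift or splice-donor calls were made in 4 genes, all 1/1 in the exome and none with an RNA genotype. The annotation gives no protein change for the splice-donor calls. In Arhgap5, a T-to-C change at the splice donor after exon 1, at 52519969, had 8 RNA reads. In Snapc1, a subunit of a complex that activates small nuclear RNA genes, a T-to-C change at a splice donor at 73969633 had 0 reads. The missense change S268P in the same gene had 3. Gm6803 had a 1-base deletion at 88018691, at residue 27 of 144. Gm2056 had an insertion of 64 bases at 88027394, annotated as a frameshift with a stop gained. Both had 0 reads and lay from 87 to 89 Mb, the stretch that held 211 of the 0/1 calls.

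In-frame length changes are shown by their inserted bases, on the plus strand and as deposited. Fscb, a sperm-tail protein, had 36 bases inserted at 64472565 with 0 RNA reads, a change of 12 residues in a protein of 1062. Exd2, an exonuclease, had 6 bases inserted at 80475924, 1/1 in exome and in RNA with 27 reads.
Fscb insertion: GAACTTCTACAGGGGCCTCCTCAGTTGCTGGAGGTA
Exd2 insertion: CAGCCA
Among the 992 homozygous insertions and deletions, 445 were insertions and 547 deletions, with a median length of 2 bases and only 5 in coding sequence.

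Over the 679 RefSeq protein-coding genes of chromosome 12, 26.1% had any exome call, 11.8% a coding call and 5.60% a protein-changing one. Of 31 listed genes of signalling and transcription, 9 had any call, 3 a coding call and 0 a protein-changing one, a coding count near that background. From 40 to 100 Mb, 3 of its 13 genes had a coding call. Hif1a, the oxygen-regulated transcription factor, had 51 calls, all 1/1. Its 5 coding calls were synonymous, with 227, 349, 329, 838 and 326 RNA reads along the gene, and all 5 were 1/1 in RNA. Nkx2-1 had 1 synonymous call with 0 reads.

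Among 10 DNA replication and repair genes, 5 had a call and 2 a protein change. Of the 10, 7 lay from 40 to 100 Mb, where 11.3% of all RefSeq protein-coding genes had a protein-changing call, and a list of this size is too short to set apart from that share. Fancm, a helicase of the Fanconi anaemia pathway, carried V876I with 21 reads and A1081V with 10. Pole2, a subunit of DNA polymerase epsilon, carried M78V with 6. All 3 were 1/1 in both. No coding call was made in the listed proteasome genes (1 of 6 with any call), the adhesion and matrix genes (2 of 6), the Serpina cluster (1 of 28), the immunoglobulin heavy chain genes (2 of 216) or the imprinted Dlk1-Dio3 cluster (0 of 7). The last 3 groups lay wholly beyond 100 Mb, and outside 40 to 100 Mb only 2 of 352 RefSeq protein-coding genes had a coding call. Of the proteasome and the adhesion and matrix genes, 2 and 4 lay from 40 to 100 Mb.

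Positions called in RNA and not in the exome are the complement of the members, and their genotypes are given as a description. With 20 or more reads, 66.2% of 2141 such chromosome 12 calls were 1/1 in RNA (64.2 to 68.2), against 50.8% over all chromosomes. From 40 to 100 Mb, 890 of 1290 were 1/1, and in the remaining windows 528 of 851 (62.0%). From 51 to 52 Mb, 330 of 373 were 1/1 (88.5%). Windows of the dense span differed among themselves, with 15 of 50 calls 1/1 at 95 to 100 Mb and 29 of 31 at 60 to 65 Mb. Some windows of the span with almost only 1/1 exome calls thus held many RNA-only calls that were not 1/1, such as 65 to 70 Mb with 37 of 107.

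The label of a squamous carcinoma could be checked only through RNA depth at variant positions in exons. Of 11 keratinocyte markers, 4 had such a position, with 139 reads in Itgb4, 4 in Perp and 0 in Cdh1 and Dsp. Among fibroblast markers, Col1a1 reached 707 reads, Col1a2 641 and Col3a1 10, and the T cell genes Cd3e and Cd8a and the macrophage gene Itgam were at 0. These depths are not expression levels, and the keratins among the listed markers had no such position.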

How the data were processed

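Exome DNA and RNA of A223 were read in 1 library each, and the authors deposited 1 variant table in 2 identical copies, of which 1 was used. Per the file headers, each position has genotype columns for the 2 libraries and an RNA read count that is not normalised. BWA and GATK are named in the submitters' processing notes without versions. No source used here names the genome build, but the deposited reference base equalled that of GRCm38.p6 at 2432 of 2432 single-base exome calls in RefSeq promoter windows, and 321 of 321 coding calls in genes matched by symbol lay within their bounds. Exome depth and allele reads were not used here, and 34 RNA depth cells that were not 1 number, none at an exome call, were read as missing.

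Calls were counted with Python 3.11.15 and pandas 2.3.3 in 5 Mb and 1 Mb windows, by genotype, class and gene. Missense, frameshift, in-frame and start or stop calls among coding calls were counted as protein-changing, and splice-site calls were counted apart. Shares of RNA genotypes were taken at 20 or more RNA reads. RNA genotypes of single genes and calls are also given below that depth, where they rest on few reads. Intervals are exact 95% Clopper-Pearson intervals from SciPy 1.17.1 and cover counting error only. The counting was tested on simulated data. No p-value was computed. Members and lists were chosen with earlier results of these data known. Named were genes with a frameshift, start, stop or splice-site call, the 5 with the most calls, the 10 homozygous protein changes with the most RNA reads (1 a gene), genes with a heterozygous coding call and list genes with a protein change. Other genes were named after their values were seen, and a few genes that fall under these rules are not reported here. Alternatives changed variant type, annotation, genes, window size and read minimum.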

Additional observations from a re-analysis of the deposited data

How the results depend on the processing

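The share of 1/1 on chromosome 12, 92.6%, was 97.9% in coding calls and 90.8% without the 5 genes with the most calls. In alternatives chosen after seeing the data it was 96.9% without 87 to 89 Mb, Gphn and Gm5436, 93.9% from 40 to 100 Mb, 98.6% with both limits and 96.7% without labels naming a Gm model. The highest window count, 2206, was 1354 in 2 Mb windows and 151 in coding calls. The share of 1/1 calls that were 1/1 in RNA, 88.4%, was 68.6% at 1 or more reads. The 3 heterozygous calls also heterozygous in RNA became 1 at 50 or more reads, 5 at 1 or more, and 0 without Gphn and Gm5436. No paired analysis was possible because each assay has 1 library. Exome depth is unknown, so a missed second allele cannot be told apart from a homozygous position, and RNA genotypes are limited to expressed positions.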
